A study of Mus musculus with 8 samples.

Results

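The genes described here make the pigment of the eye and skin. They are Oca2, Mlana, Trpm1, Tyrp1, Dct, Pmel, Tyr, Slc45a2 and Mitf, 9 genes known for their roles in melanocytes. The 9 genes were chosen with earlier results of these data known. Their members on the array were all probe sets that the platform annotation assigns to 1 of these symbols alone, whatever their signals, which gave 18 of the 45037 probe sets tested. No probe set of these genes was shared with another gene. The RNA came from mouse corneas on 8 one-colour arrays. There were 4 arrays from mice with overexpression of TGF-beta (called TGFB here) and 4 from wildtype littermates of these mice. TGF-beta is a secreted growth factor of wound healing and matrix production. The labels used here name no TGF-beta isoform, promoter, strain or age. Separate animals per array are not stated, so the spread behind the p-values may be technical. Arrays are numbered within a group by record order, and these numbers pair no arrays.

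Melanin is made from tyrosine inside melanosomes, which are organelles related to lysosomes. Tyrosinase (Tyr) starts the synthesis, and its relatives Dct and Tyrp1 act on later intermediates of brown-black melanin. Pmel forms the fibrils on which melanin is laid down, and Mitf is the transcription factor that drives most of these genes. In the eye, pigment is made by the retinal pigment epithelium, by the pigmented layers of iris and ciliary body, and by melanocytes of the uvea. The clear cornea itself is normally free of pigment.

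The promoters of the 3 enzyme genes carry a motif that Mitf is known to bind, the M-box, and are shown because these genes had lower means in TGFB together. RefSeq promoters of assembly GRCm38.p6 run from 250 bases before to 50 bases after a start. They were matched for 6 of the 9 genes, with 9 starts between them. Windows around the core letters TCATGTG are printed 5′ to 3′ on the strand of the gene, with that core in capitals.
Tyr, chr7:87493513-87493559, minus strand: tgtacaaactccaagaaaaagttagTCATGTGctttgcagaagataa
Tyrp1, chr4:80834141-80834197, plus strand: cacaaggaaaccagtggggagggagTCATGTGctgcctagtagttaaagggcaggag
Dct, chr14:118052366-118052422, minus strand: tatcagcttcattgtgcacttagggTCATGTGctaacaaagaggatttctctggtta
Trpm1, chr7:64153668-64153724, plus strand: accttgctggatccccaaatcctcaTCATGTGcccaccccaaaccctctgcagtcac
The first base of the core lies at position -22 in Tyr, -47 in Tyrp1, -151 in Dct and -142 in Trpm1, counted from the base before the start as -1. Searched on both strands, TCATGTG was present in 4 of the 9 member promoters, those of 4 genes, and in 3.77% of all 32851 promoters. Dct held a further copy on the other strand. The longest run that contains the core and is shared by the Tyr, Tyrp1 and Dct promoters is GTCATGTGCT. It was derived from these 3 promoters, so its presence in them was fixed by that choice. It occurs in 0.186% of all promoters. The shorter E-box CATGTG, also inside the core, was present in 6 of the 9 member promoters and in 14.2% of all. The E-box CACGTG was present in 1 of the 9, at another start of Trpm1, and in 7.15% of all. These matches describe letters in a window and do not show binding.

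All 18 probe sets had lower means in TGFB than in wildtype corneas, but no single one passed the test. The smallest difference was -0.72 and the largest -2.85 on the log2(signal + 16) scale, where the offset of 16 damps noise and shrinks the differences of dim probe sets. The median difference over the 9 genes, each by its brightest probe set, was -1.70, against -0.014 over all 18193 genes. A lower mean was seen in 48.4% of all probe sets. Limma with Benjamini-Hochberg adjustment over all probe sets called 0 of the 18 lower at adjusted p under 0.05, and 0.00% of all probe sets. Adjusted p ran from 0.822 to 0.896 among the 18. At an unadjusted p under 0.05, 14 of the 18 were lower and 0 higher, against 3.16% of all probe sets lower and 2.70% higher. A mean lower by 1 or more was seen in 15 of the 18, and in 0.575% of all probe sets. The 2 groups did not overlap for 4 of the 18 (1.81% of all probe sets). Several of the 18 measure the same gene. By brightest probe set, 7 of the 9 genes were lower at an unadjusted p under 0.05, against 4.54% of all genes. The groups did not overlap for 2 of the 9 genes, against 2.45% of all genes. Because the genes were chosen with earlier results of these data known, these counts beside the shares of all probe sets are only a description. In bulk RNA, fewer pigment cells and less pigment RNA per cell cannot be told apart.

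**Figure D1:**
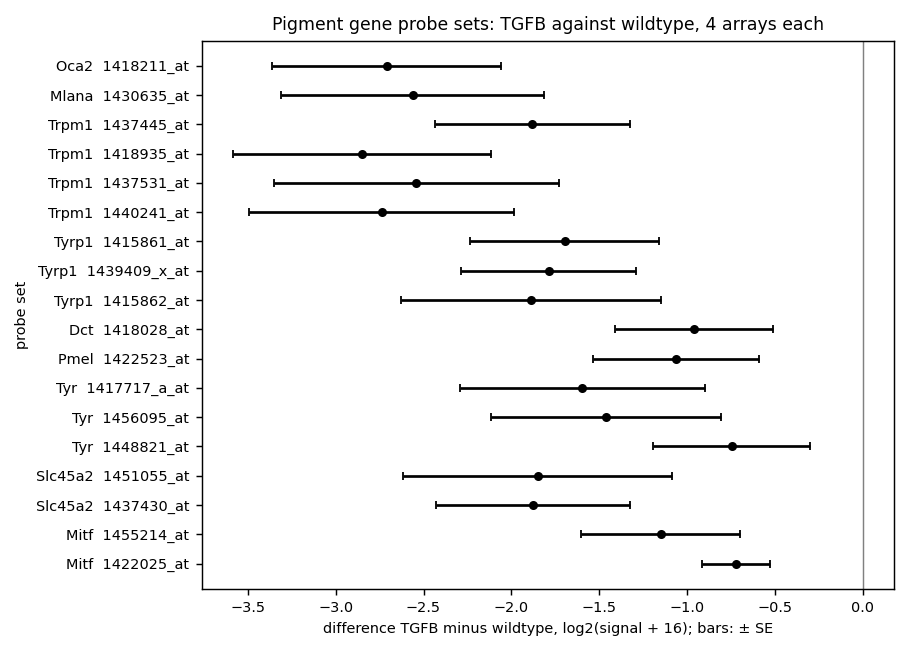
Difference between the group means (TGFB minus wildtype, log2(signal + 16)) for each of the 18 probe sets, with the limma SE as bars and 4 arrays per group. All points lie below 0, from -0.72 for the dim Mitf probe set to -2.85 for a Trpm1 probe set.

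Of the enzymes, Tyrp1, which works late in the synthesis of brown-black melanin, gave signals of 415, 1062, 2173 and 2107 in TGFB 1 to 4. In wildtype 1 to 4 it gave 7073, 2760, 4856 and 2473. All wildtype arrays lay above all TGFB arrays, though wildtype 4 and TGFB 3 were close. Its log2 mean was 10.24 ± 1.10 (SD, n = 4) against 11.94 ± 0.71 (SD, n = 4), a difference of -1.70 (SE 0.54, limma adjusted p = 0.837). A second Tyrp1 probe set also did not overlap, with 307, 1131, 1329 and 890 in TGFB against 5053, 1406, 3479 and 2541 in wildtype arrays. The third and dimmest overlapped, with 52.9 to 390 in TGFB against 226 to 2404 in wildtype arrays, and wildtype 4 was its lowest wildtype array. The 3 probe sets gave differences of -1.70, -1.79 and -1.89.

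Tyr, the rate-limiting enzyme, gave 149, 349, 1097 and 796 in TGFB 1 to 4 by its brightest probe set. In wildtype 1 to 4 the signals were 3895, 752, 2088 and 703. Wildtype 1 and wildtype 3 stood above all TGFB arrays, while wildtype 2 and wildtype 4 lay below TGFB 3 and TGFB 4. The difference was -1.60 (SE 0.70, limma adjusted p = 0.846). The other Tyr probe sets gave -1.46 (SE 0.65) and, for the dimmest, whose signals ran from 12.6 to 128.5, -0.75 (SE 0.45), or -0.33 without wildtype 1.

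Dct, the dopachrome tautomerase, spread less among wildtype arrays. In TGFB 1 to 4 its signals were 1354, 2554, 5664 and 5984. They were 8080, 4673, 7718 and 5821 in wildtype 1 to 4. Only TGFB 1 and TGFB 2 were below every wildtype array, and TGFB 3 and TGFB 4 lay within the wildtype range. The difference was -0.96 (SE 0.45, limma adjusted p = 0.850). Without TGFB 1 it was -0.53.

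Pmel, the melanosome fibril protein, gave a difference of similar size. Signals were 1088, 2089, 5094 and 5492 in TGFB 1 to 4. They were 6631, 5185, 7151 and 5009 in wildtype 1 to 4. TGFB 1 and TGFB 2 again stood below, and TGFB 3 and TGFB 4 reached the lower wildtype arrays. Its difference was -1.06 (SE 0.47, limma adjusted p = 0.846), and -0.61 without TGFB 1.

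Mlana, a small melanosome membrane protein that binds Pmel, showed a wider gap. TGFB signals were 68.2, 154, 190 and 175, and wildtype signals 3215, 678, 1552 and 179. Wildtype 4 was inside the TGFB range, while the other wildtype arrays were at least 3.56 times the highest TGFB array. The log2 mean was 7.27 ± 0.59 (SD, n = 4) against 9.83 ± 1.74 (SD, n = 4), a difference of -2.56 (SE 0.75, limma adjusted p = 0.834).

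Oca2 and Slc45a2 encode melanosome membrane proteins that help set the pH inside the organelle, and loss of either causes albinism. Oca2 gave 28.7, 43.4, 87.8 and 60.2 in TGFB 1 to 4. In wildtype 1 to 4 it gave 1164, 326, 816 and 98.8. Its groups did not overlap, though wildtype 4 was only just above TGFB 3. Its difference was -2.71 (SE 0.65, limma adjusted p = 0.822). The brighter Slc45a2 probe set gave 39.4, 88.1, 31.3 and 22.9 in TGFB against 945, 129, 240 and 34.4 in wildtype arrays. Wildtype 4 again lay among the TGFB arrays, and here TGFB 2 was the highest TGFB array. The difference was -1.85 (SE 0.77, limma adjusted p = 0.839), and -1.11 without wildtype 1. The dimmer Slc45a2 probe set did not overlap, with 19.5 to 39.7 in TGFB against 40.8 to 464 in wildtype arrays, and gave -1.88 (SE 0.55).

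Trpm1 encodes a cation channel of melanocytes that also carries the light response of ON bipolar cells of the retina. Its brightest probe set gave 71.4, 148, 302 and 242 in TGFB against 1184, 527, 1244 and 248 in wildtype arrays. Wildtype 4 lay between TGFB 4 and TGFB 3, and the other wildtype arrays lay above all TGFB arrays. The difference was -1.88 (SE 0.56, limma adjusted p = 0.834). The remaining Trpm1 probe sets gave -2.85, -2.54 and -2.74, with SEs from 0.73 to 0.81. They placed wildtype 4 inside the TGFB range as well.

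Mitf, the transcription factor upstream of the others, measured 266, 402, 647 and 630 on the TGFB arrays, against 2202, 754, 1348 and 510 on wildtype 1 to 4. Wildtype 4 was below TGFB 3 and TGFB 4. The difference was -1.15 (SE 0.45, limma adjusted p = 0.837). A second Mitf probe set was dim on every array, with signals of 4.86 to 19.4 in TGFB against 19.1 to 33.8 in wildtype arrays. It gave -0.72 (SE 0.19), with wildtype 2 just below TGFB 3.

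**Figure D2:**
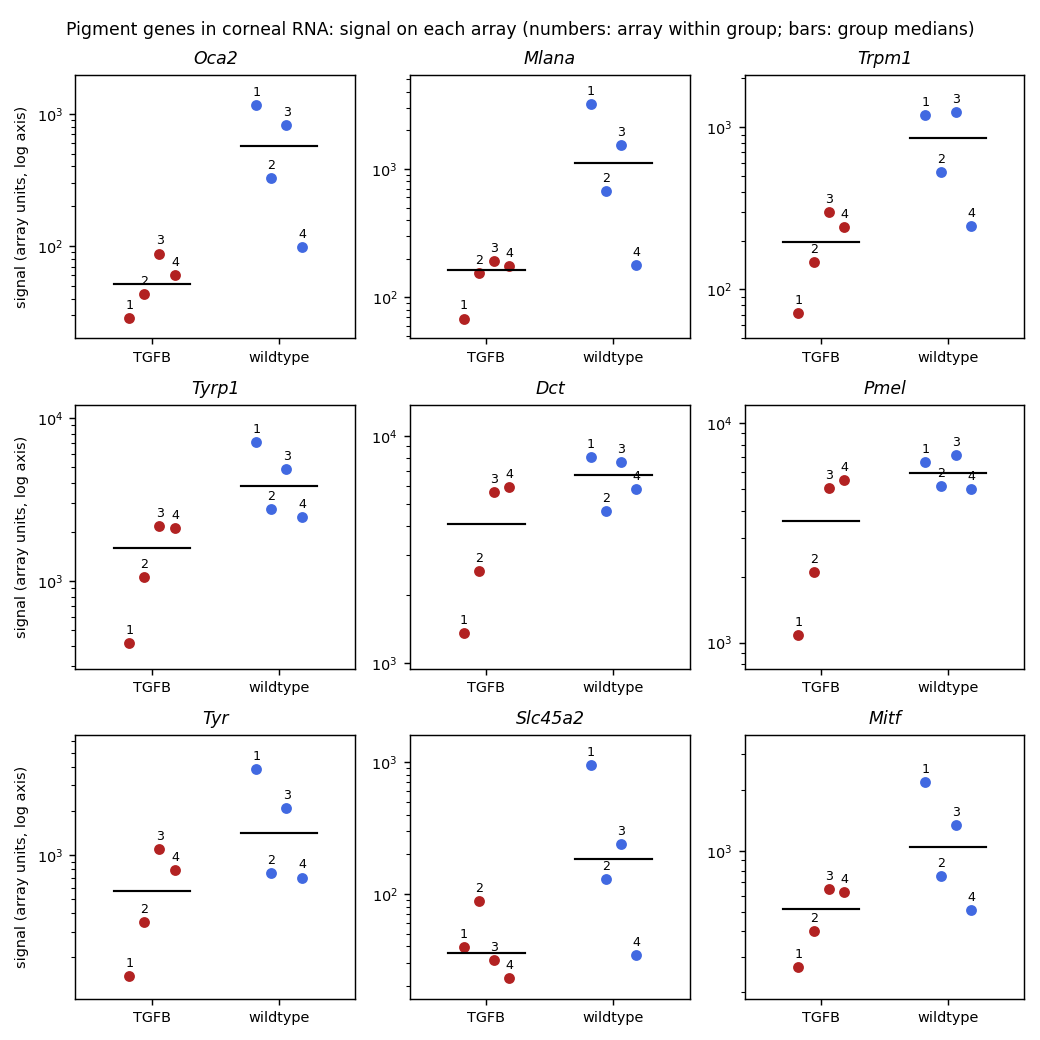
Signal of each of the 9 genes (brightest probe set, log axis) on the 4 TGFB and 4 wildtype arrays, with array numbers beside the points and bars at the group medians. Wildtype 1 or wildtype 3 is highest in every panel, and TGFB 1 is lowest in 8 of the 9. Wildtype 4 lies inside the TGFB range in every panel but those of Oca2 and Tyrp1, where it is just above it.

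The arrays kept nearly the same order from gene to gene. Wildtype 1 was highest for 15 of the 18 probe sets and wildtype 3 for the other 3. TGFB 1 was lowest for 16 and TGFB 4 for 2, both of them Slc45a2. Among wildtype arrays, wildtype 4 was lowest for 15 of the 18 and wildtype 2 for 3. Wildtype 4 fell inside the TGFB range for 13 of the 18. Without it, the groups did not overlap for 12 of the 18, against 5.45% of all probe sets, and the smallest limma adjusted p among the 18 was 0.0565, for a Trpm1 probe set. Wildtype 4 was singled out here by these same signals, so leaving it out favours such values, which are only a description. The 6 that still overlapped were those of Dct, Pmel and Tyr, and the dim Mitf probe set.

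Set against its own signal on wildtype 1, each gene showed how far it ran below that array. This view was chosen after the values were seen. On wildtype 4 Dct stood at 72.0% and Pmel at 75.5% of their wildtype 1 signal. Tyrp1 stood at 35.0%, Mitf at 23.2%, Trpm1 at 20.9% and Tyr at 18.0%. Oca2 was at 8.49%, Mlana at 5.56% and Slc45a2 at 3.64%. TGFB 3 gave a like series, with 70.1% for Dct, 76.8% for Pmel, 30.7% for Tyrp1 and 29.4% for Mitf. It had 25.5% for Trpm1, 28.2% for Tyr, 7.55% for Oca2, 5.92% for Mlana and 3.31% for Slc45a2. On wildtype 1, Dct lay at the 99.97th and Pmel at the 99.82nd percentile of all signals, where the highest was 10569. Slc45a2, by contrast, was at 34.4 on wildtype 4, 31.3 on TGFB 3 and 22.9 on TGFB 4. The median signals of those arrays were 32.3, 32.7 and 32.4. Whether signals that bright or that dim respond in proportion to RNA was not tested, so these percentages describe signals, not RNA amounts. On TGFB 1 even Dct and Pmel were at 16.8% and 16.4%, and Mlana was at 2.12%. From lowest to highest array, Dct spanned 5.97-fold and Pmel 6.57-fold, while Mlana spanned 47.2-fold and Oca2 40.6-fold.

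**Figure D3:**
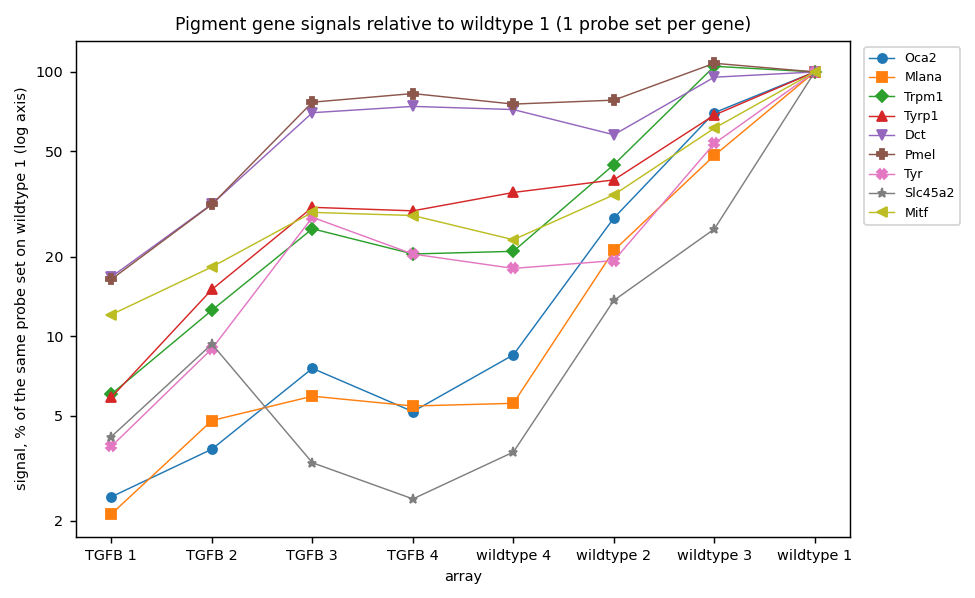
Signal of each gene's brightest probe set on every array as a percentage of its signal on wildtype 1 (log axis), with lines only to guide the eye. Dct and Pmel stay at 70.1% to 82.8% on TGFB 3, TGFB 4 and wildtype 4, where Mlana, Oca2 and Slc45a2 stay at 2.42% to 8.49%.

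The wider machinery of the melanosome had smaller differences as a list. Of 31 genes of melanosome building and transport, 28 were measured and 0 passed limma's adjusted threshold (0.00% of all genes). At an unadjusted p under 0.05, 2 were lower and 0 higher, against 4.54% of all genes lower and 2.69% higher. Gpr143, the ocular albinism receptor, gave 30.6, 70.8, 64.4 and 64.2 in TGFB against 855, 182, 391 and 88.9 in wildtype arrays. Its groups did not overlap (2.45% of all genes, lower), and the difference was -2.04 (SE 0.57, limma adjusted p = 0.834). Gpnmb, a relative of Pmel, gave 86.2, 175, 402 and 395 against 2292, 458, 999 and 291, a difference of -1.67 (SE 0.66). Ap3b1, a subunit of the sorting adaptor AP-3, had -0.47 (SE 0.21), and Bloc1s5, a subunit of the BLOC-1 complex, had -0.32 (SE 0.15) with groups that did not overlap. The list's median difference was -0.12, with 20 of 28 lower, where 52.6% of all genes had a lower mean.

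Receptors, ligands and transcription factors of the melanocyte lineage had small differences as a list. Of 22 genes 21 were measured and 0 passed the adjusted threshold. By unadjusted p under 0.05, 1 was lower and 1 higher, where 4.54% of all genes were lower and 2.69% higher. The median difference was -0.13, with 13 of 21 lower (52.6% of all genes). Both shares lie near those of all genes. Edn3, the endothelin that melanoblasts need, gave 44.9, 28.7, 28.2 and 38.2 in TGFB against 319, 108, 171 and 46.0 in wildtype arrays, with a difference of -1.55 (SE 0.44, limma adjusted p = 0.834) and no overlap. Edn1 had a higher mean in TGFB, with signals of 43.4 to 110 against 20.5 to 56.2 and a difference of 0.81 (SE 0.27, limma adjusted p = 0.837). Lef1, a transcription factor of WNT signals, gave 138, 282, 44.4 and 27.3 in TGFB against 24.0 to 57.5 in wildtype arrays. Its difference was 1.09 (SE 0.55), with only TGFB 1 and TGFB 2 above every wildtype array. The receptor Met had a difference of -0.79 (SE 0.42).

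The same list ordered the TGFB arrays in mixed ways, which was counted after the values were seen. By their brightest probe sets, all pigment genes but Slc45a2 were lower in both TGFB 1 and TGFB 2 than in TGFB 3 and TGFB 4. Some dimmer probe sets of Tyrp1 and Trpm1 were not. Of the 21 genes of this list, 4 had that order, 10 were higher in both TGFB 1 and TGFB 2, and 7 did neither. Among the 4 were the receptors Kit and Ednrb, which melanoblasts need, with Met and Pomc. Kit gave 97.2, 86.2, 150 and 108 in TGFB against 191, 169, 180 and 47.7 in wildtype arrays. Ednrb gave 434, 335, 1046 and 805 against 1657, 530, 525 and 854. Among the 10 were Sox10, Pax3 and Mc1r. Sox10, which is also a Schwann cell gene, gave 88.1 and 78.6 in TGFB 1 and TGFB 2 but 48.2 and 42.1 in TGFB 3 and TGFB 4. In wildtype 1 to 4 it gave 197, 115, 125 and 17.5. Pax3 gave 125, 75.0, 30.0 and 31.8 in TGFB against 95.2, 89.0, 76.6 and 26.8 in wildtype arrays. Mc1r, the melanocortin receptor, gave 45.2, 49.3, 11.8 and 20.8 against 142, 61.2, 63.5 and 13.2. The differences of Sox10, Pax3 and Mc1r were -0.46 (SE 0.51), -0.18 (SE 0.42) and -0.70 (SE 0.48), beside -0.25 (SE 0.37) for Kit and -0.41 (SE 0.44) for Ednrb.

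Markers of the retinal pigment epithelium, the layer that serves the photoreceptors, also had lower means in TGFB. All 15 listed genes were measured, 14 had lower means in TGFB (52.6% of all genes), and 0 passed the adjusted threshold. Of the 15, 6 were lower and 0 higher at an unadjusted p under 0.05, against 4.54% and 2.69% of all genes. The list's mean level was 6.11 to 6.94 in TGFB against 7.12 to 8.56 in wildtype arrays, without overlap, and wildtype 1 was highest. Rgr, an opsin of this layer, gave 0.897 to 5.08 in TGFB arrays and 919, 155 and 156 in wildtype 1 to 3, but 4.81 in wildtype 4. Its difference was -3.07 (SE 0.92, limma adjusted p = 0.834). Without wildtype 1 and wildtype 4 it passed, at -3.22 (limma adjusted p = 0.00637). Those are the highest and lowest wildtype arrays for Rgr, and the wildtype arrays left were nearly equal, so this pass depends on which arrays were left out. Rlbp1, which binds retinaldehyde, gave 57.6, 99.4, 567 and 375 against 1918, 526, 1071 and 328. The opsin Rrh gave 12.3 to 54.7 against 52.8 to 321, a difference of -2.10 (SE 0.51). The lactate transporter Slc16a8 gave 43.3 to 157 against 185 to 739, a difference of -1.73 (SE 0.46). Rpe65, the isomerase of the visual cycle that defines this layer, was at 250 in wildtype 1 and between 0.569 and 6.28 on the other 7 arrays. The part of this tissue in the pigment gene differences was not tested.

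Among genes of retinal neurons, 20 of 22 photoreceptor genes were measured, 17 with lower means in TGFB (52.6% of all genes). There were 2 lower and 0 higher at an unadjusted p under 0.05 (4.54% and 2.69% of all genes), and 0 past the adjusted threshold. The list's mean level was 4.87 to 5.27 in TGFB against 4.90 to 6.77 in wildtype arrays, with wildtype 4 at the low end. Arrestin Sag gave 29.0 to 44.2 in TGFB arrays, 1892 in wildtype 1, 237 and 226 in wildtype 2 and wildtype 3, and 30.1 in wildtype 4. Guca1a, an activator of guanylate cyclase, had 36.5 to 50.8 against 63.9 to 109, a difference of -0.85 (SE 0.17). Pde6g had a difference of -1.05 (SE 0.48) and the rod factor Nrl one of -2.01 (SE 0.99). Markers of ON bipolar cells, the retinal neurons that use Trpm1, differed in brightness. Of 12 listed genes 9 were measured, and 0 were lower or higher at an unadjusted p under 0.05. Pcp2 ran from 13.3 to 73.1 and Cabp5 from 2.95 to 37.1 over the 8 arrays, whose median signals over all probe sets were 26.3 to 34.4. Rgs11 ran from 29.0 to 108, and Prkca, a kinase of many cell types, from 231 to 442. Gnao1 (-0.72, SE 0.41), Nyx (0.34, SE 0.19) and Gng13 (-0.28, SE 0.17) were the other members with the smallest p, next to Cabp5 (-0.66, SE 0.29).

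Iris and ciliary body genes were also lower on average, with 11 of 12 measured members lower (52.6% of all genes). At an unadjusted p under 0.05, 2 were lower and 0 higher, against 4.54% and 2.69% of all genes, and 0 passed the adjusted threshold. The list's mean level was 6.73 to 7.26 in TGFB against 6.98 to 7.84 in wildtype arrays. Ptgds, a prostaglandin D synthase made in several ocular tissues, gave 367, 879, 1546 and 1874 against 5407, 2745, 4952 and 1390, a difference of -1.67 (SE 0.56). The homeobox gene Otx1 had -0.85 (SE 0.27), Foxc1 -0.56 (SE 0.35) and Wfdc1 -0.47 (SE 0.29).

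Lens and skin transcripts varied between arrays in other orders. All 15 measured lens genes had lower means in TGFB (52.6% of all genes), though 0 passed even an unadjusted p under 0.05 (4.54% of all genes, lower). Their mean level ran from 4.71 to 9.72 in TGFB and from 5.17 to 10.61 in wildtype arrays. The crystallin Cryga gave 10.9 to 5773 in TGFB arrays, against 39.2 to 6313 in wildtype arrays. The lens mean was low in TGFB 1, TGFB 2 and wildtype 2, at 4.71, 4.78 and 5.17. Those were the arrays high in cornified epidermis genes, at 12.22, 12.59 and 11.45 against 6.24 to 7.20 on the others. Hair follicle keratins and related genes went along with them, at 6.57, 6.59 and 6.01 against 4.65 to 4.76. Pigment gene means in those arrays were 7.66, 8.56 and 9.92, against 9.13 and 9.29 in TGFB 3 and TGFB 4 and 9.20 to 11.50 in the other wildtype arrays. Without TGFB 1, TGFB 2 and wildtype 2, all 18 pigment probe sets kept a lower mean in TGFB, 4 of them at an unadjusted p under 0.05 (1.86% of all probe sets, lower). The median difference over the 9 genes was then -1.03. Dct and Pmel had -0.29 and -0.23 there. Leaving out those arrays also removes TGFB 1 and TGFB 2, the TGFB arrays with the lowest pigment means, so it is no test of skin. The part of skin in the pigment gene differences was not tested.

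Markers of the cornea itself were bright on all arrays for some genes and dim for others. The keratocyte proteoglycan Kera gave 2073 to 4154 in TGFB against 2538 to 8110 in wildtype arrays. The epithelial keratin Krt12 gave 289 to 4551 and 562 to 5766, with TGFB 1 and wildtype 4 at the low ends. Aldh3a1, an aldehyde dehydrogenase abundant in the corneal epithelium, gave 4060 on wildtype 1 but 52.5 to 315 on the other 7 arrays. B3gnt7, a keratan sulfate enzyme, gave 11.9 to 30.1 and lay below the median signal of every array. Stromal genes had 9 of 12 members lower and epithelial genes 5 of 11, with median differences of -0.077 and 0.30. Taken at an unadjusted p under 0.05, 1 stromal gene was lower and 0 higher, while 1 epithelial gene was lower and 2 higher. Over all genes, 52.6% had a lower mean, and 4.54% were lower and 2.69% higher at that p. Nerve and Schwann cell genes had 9 of 11 lower (2 lower and 1 higher at an unadjusted p under 0.05). Skeletal muscle genes had 11 of 11 lower, with 0 at an unadjusted p under 0.05. Gapdh, whose 3′ probes outshine its 5′ probes as RNA breaks down, had a 3′ to 5′ ratio of 6.41 on wildtype 4 and of 2.19 to 4.31 on the other arrays. Its part in the pigment signals of wildtype 4 was not tested.

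Among 10808 genes with a mean level of at least 6, some followed the pigment genes closely over the 8 arrays. Likeness was measured as Pearson r with the mean of the 9 genes, each centred on its own mean, and is a description. Tspan10, a tetraspanin of pigmented tissues, was closest at 0.993, at 39.4, 90.8, 224 and 172 on the TGFB arrays and 1283, 271, 604 and 158 on the wildtype arrays. Slc16a8 followed at 0.990 and Gpnmb at 0.984. Bace2, a protease known to cut Pmel, stood at 0.980, with 84.1 to 261 in TGFB against 221 to 935 in wildtype arrays. The rest of the nearest 8 were Tmem237 (0.986), Tstd3 (0.983), Slc7a10 (0.980) and the endothelial sialomucin Emcn (0.979). With group means removed, these 8 genes still stood at 0.955 to 0.993. The members themselves ran from 0.820 for Slc45a2 to 0.989 for Mitf, with Pmel at 0.833 and Dct at 0.846. Each member is part of the mean it was set against, which can raise its r, so these values are not comparable with those of the other genes.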

How the data were processed

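RNA from 8 mouse corneal samples was hybridised to one-colour arrays of 45101 probe sets. The deposited table holds linear intensities (signals) per probe set. The labels used here name no tool or scaling for them. The 2% trimmed mean was 150 on every array, so no further normalization was applied, and no 2 arrays were identical. Median signals ran from 26.3 to 34.4. The number of arrays limits the precision.

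After 64 control probe sets were left out, 45037 were fitted without any filter in limma 3.58.1 (R 4.3.3; lmFit and eBayes) as log2(signal + 16), with groups as the only term and Benjamini-Hochberg adjustment over all. The platform annotation (2016) gave 1 symbol to 34945 probe sets, several to 932 and none here to 9160. Entrez IDs matched 34741 of the probe sets with 1 symbol to RefSeq (GRCm38.p6), and the RefSeq symbol was used for those. For lists, a gene's brightest probe set over the 8 arrays stands for it, which gave 18193 genes. Simulated arrays with known changes served to test this limma step.

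Named genes were all member probe sets, up to 4 genes with the smallest p in each other list, tissue-defining markers and the 8 genes most like the members. Not all of these are printed for lists of other tissues. Members and lists were chosen with earlier results of these data known. Alternatives tried were leaving out arrays, offsets of 1 and 32, normalization by quantiles or medians, a 40th percentile filter, gene units, a variance trend, robust eBayes, array weights and other thresholds.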

Additional observations from a re-analysis of the deposited data

How the results depend on the processing

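All 18 probe sets kept lower means in TGFB in each of the 332 values computed under 20 alternatives, and none passed the adjusted threshold in any. The count of all probe sets past it was 0 with all 8 arrays, 2 without wildtype 4 (both of the carboxylesterase Ces1d, named after its values were seen) and 2 without wildtype 1 and wildtype 4 (Rgr and Ces1d). It was 0 in the other alternatives. With all 8 arrays it was also 0 at adjusted p under 0.1 and under 0.01. At adjusted p under 0.1 it was 25 without wildtype 4 and 5 without wildtype 1 and wildtype 4. Among the 25 were a Trpm1 probe set and Oca2 (limma adjusted p = 0.0565 and 0.0964). Wildtype 4 was singled out by these same signals, so these values are only a description. At an unadjusted p under 0.05, the pigment probe sets numbered 14 with all arrays, 10 to 16 with single arrays left out (2.13% to 5.78% of all probe sets), and 4 without TGFB 1, TGFB 2 and wildtype 2 (1.86%). Those without overlap numbered 4 with all arrays, 4 to 12 with single arrays left out (8 without TGFB 3, where 3.28% of all probe sets did not overlap, and 12 without wildtype 4, where 5.45% did not), and 12 without wildtype 1 and wildtype 4 (9.72%). They numbered 6 without TGFB 1, TGFB 2 and wildtype 2 (9.09%). The median difference of the 9 genes ran from -1.98 to -1.12 with single arrays left out, the smallest being without wildtype 1. These counts of probe sets were not formed where the unit was the gene. No paired analysis was possible because the array numbers come from record order and pair no arrays. Dim probe sets, such as those of Mitf and Tyr near or below a signal of 16, have an understated change.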
